A study of Mus musculus with 8 samples.

Results

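Men1 and 9 genes whose products write, guide or remove trimethylation of lysine 4 on histone H3 (H3K4me3) were examined for their own H3K4me3: Men1, Wdr5, Rbbp5, Ash2l, Dpy30, Setd1a, Setd1b, Cxxc1, Psip1 and Kdm5b. They were chosen by name as members of the menin and SET1 type methyltransferase machinery, and are 10 of the 26212 genes that were given a transcription start site. H3K4me3 was counted within 1 kb of the start of each gene, and along the bodies of Men1 and Setd1b. Where a gene has several annotated starts, the one with most tags over the 4 H3K4me3 libraries together was used. The level is given as tags per 1000000 mapped tags (RPM).

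The study set wild-type (wt) cells against cells without menin, the tumor suppressor encoded by Men1, to ask where H3K4me3 depends on menin before and after differentiation. The wt mouse embryonic stem cells (mESCs) were of line TC-1 and the menin-null (Men1-ko) mESCs of line 3.2N, and both are of the 129S6/SvEvTac background. The other 2 groups were pancreatic islet-like endocrine cells (PILECs) made in vitro from these lines through embryoid bodies, without LIF, and with nicotinamide in the last step. Each of the 4 conditions has 1 H3K4me3 library and 1 input library of the same chromatin, so 8 libraries were used and no condition was replicated. Each genotype is 1 line, therefore genotype and line cannot be told apart, and mESCs were grown on irradiated fibroblast feeders before they were made feeder-free.

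H3K4me3 marks the start sites of most active and CpG-rich promoters. It is written by complexes that share a core of WDR5, RBBP5, ASH2L and DPY30, which hold a catalytic SET protein: SETD1A or SETD1B, joined by the CpG-binding CXXC1, or MLL1 and MLL2 (the genes Kmt2a and Kmt2b), which carry menin. LEDGF, the product of Psip1, tethers the menin and MLL complex to chromatin, and KDM5B removes H3K4 methyl groups.

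The H3K4me3 libraries held 2432377 tags (wt mESCs), 3517028 (menin-null mESCs), 18773635 (wt PILECs) and 17682677 (menin-null PILECs), and the input libraries 3744616 to 19016697. With 1 library per condition no test of the conditions was possible. Each log2 ratio below has an exact 95% interval (Clopper-Pearson, conditional on the summed tags) that covers counting error only and compares the libraries. A gene was called higher or lower where its ratio was at least 1.5-fold and its interval excluded 0. In bulk chromatin, fewer cells with the mark and less mark per cell cannot be told apart. The mESC markers Pou5f1 (55.9, 78.5, 3.68 and 2.43 RPM in wt mESCs, menin-null mESCs, wt PILECs and menin-null PILECs) and Nanog (39.9, 35.5, 2.93 and 1.53) lay far lower in both PILEC libraries. Of the islet genes in wt and menin-null PILECs, Ins1 had 4 and 9 H3K4me3 tags beside 18 and 22 in the inputs, Ins2 had 17 and 22 beside 8 and 13, and Pdx1 was at 1.07 and 1.36 RPM. The other 3 islet genes of the 6 listed stood well above their inputs in PILECs. Pax6 was at 20.1 and 21.8 RPM, Neurod1 at 7.24 and 5.54 beside 0.841 and 0.552, and Isl1 at 8.20 and 10.1 beside 1.16 and 1.05. They were marked in mESCs too, with Pax6 at 13.2 (wt) and 20.8 RPM (menin-null) and Neurod1 at 6.99 and 2.84. Isl1 was lower in both PILEC libraries than in wt mESCs (18.5 RPM), and menin-null mESCs were higher still. Pdx1 was also higher in mESCs, at 7.40 (wt) and 4.26 RPM (menin-null). The insulin promoters thus had little or no H3K4me3 over input in libraries labelled PILECs. Of the 5 fibroblast genes listed, Prrx1 (2.06 and 0.569 RPM in mESCs, 12.8 and 9.84 in PILECs) and Col3a1 (0.411 and 0, then 6.13 and 4.30) were higher there, while Col1a1 (6.58 and 6.82, then 10.9 and 9.16), Col1a2 (4.93 and 4.26, then 6.71 and 4.41) and Twist1 (30.0 and 39.0, then 33.0 and 26.5) differed less. What share of the PILEC libraries came from cells other than islet-like cells was not tested.

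The targeted gene was examined first. Men1 lies on chromosome 19 from 6334979 to 6340891 (mm9, plus strand) with 10 annotated exons, and the start used, 6335461, lies in exon 2. Over exons 3 to 8 (6336725 to 6338961) the wt input held 17 tags in mESCs and 22 in PILECs, and both menin-null inputs held 0. With 0 tags set to 3 and the wt count taken as it stands, the menin-null input was 4.99-fold lower in mESCs and 6.99-fold lower in PILECs. The exact intervals of the log2 ratio end at -1.86 and -2.38, which allow smaller folds. H3K4me3 over these exons was 24 tags in wt and 0 in menin-null PILECs, and 0 in both mESC libraries. By the same rule it was 7.54-fold lower in menin-null PILECs, with an interval that ends at -2.50. The wt PILEC H3K4me3 level there, 1.28 RPM (0.819 to 1.90), was near that of its input, 1.16 RPM (0.725 to 1.75). This fold therefore compares tags at the input level and does not describe a mark above input. The labels do not name the deleted exons, and exons 3 to 8 were counted because earlier results of these data had placed the missing part there, so these counts describe the missing part and are no independent check of the label.

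The edges of the missing stretch could be placed. Together the 4 menin-null libraries held no tag 5′ end from 6336059 to 6339108, a stretch of 3050 bp that begins 666 bp before exon 3 in intron 2 and ends 147 bp after exon 8 in intron 8. The wt libraries held 153 tag 5′ ends in the same stretch (most of them in wt PILEC H3K4me3), and the longest stretch without one in the wt libraries near the gene was 648 bp. The bases that flank it are shown because they are the last on each side that the menin-null chromatin still gave (mm9, plus strand, CpG in capitals).
Men1 intron 2, chr19:6335959-6336058: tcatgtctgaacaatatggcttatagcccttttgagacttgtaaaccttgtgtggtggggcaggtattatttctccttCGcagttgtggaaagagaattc
Men1 intron 8, chr19:6339109-6339208: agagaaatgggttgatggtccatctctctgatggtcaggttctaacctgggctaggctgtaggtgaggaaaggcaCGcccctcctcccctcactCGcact
These limits come from tag positions, so the ends of the deletion lie at or inside them.

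The Men1 promoter kept its H3K4me3 without the inner exons. Within 1 kb of the start, Men1 held 26.3 (wt) and 39.0 RPM (menin-null) in mESCs, and 46.2 (wt) and 44.3 RPM (menin-null) in PILECs, beside inputs of 1.05 to 2.59 RPM. The wt mESC library was the low one, and the 2 PILEC libraries were alike. The last 403 bp of this window, from 598 bp after the start, lie in the stretch without menin-null 5′ ends. Because tags are counted at the middle of the fragment and not at their 5′ ends, this part still held 9 menin-null and 50 wt tags in PILECs, and 1 and 0 in mESCs. Menin-null over wt was 0.57 on the log2 scale in mESCs (0.13 to 1.02, 137 against 64 tags), just under 1.5-fold, and -0.06 in PILECs (-0.20 to 0.08, 783 against 867 tags). Without that part, an alternative chosen after the data were seen, the ratios were 0.56 (0.12 to 1.01) and 0.01 (-0.14 to 0.15, 774 against 817 tags). In mESCs the log2 ratio was 0.96 within 200 bp of the start (93 against 33 tags, 0.38 to 1.58). From 200 bp to 1 kb it was -0.03 (44 against 31 tags, -0.72 to 0.69), and these intervals overlap. The distance of 200 bp was chosen after the values were seen. From 200 to 400 bp downstream the ratio was 0.91 (19 against 7 tags, -0.40 to 2.40). From 400 to 200 bp upstream it was -0.62 (16 against 17 tags, -1.70 to 0.45). Within 200 bp, 15.7% of the 12662 genes tested were called higher and 0.916% lower in menin-null mESCs, with a median of 0.30, and 3 of the 10 members were called higher: Men1, Dpy30 (0.81, 0.20 to 1.45) and Cxxc1 (1.23, 0.18 to 2.42). The surrounding input was not higher in the menin-null mESCs, at -0.22 (-0.43 to -0.01) over 50 kb, which include the missing exons.

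Inside the gene, the mark in PILECs was distributed differently on the 2 sides of the missing exons. In intron 2, which the missing stretch reaches into, menin-null PILECs held 36 H3K4me3 tags and wt PILECs 116 (log2 ratio -1.60, -2.18 to -1.05). The input fell in the same way (3 against 15 tags). From the end of exon 8 to the end of the gene, menin-null PILECs held 75 tags and wt PILECs 29 (1.46, 0.82 to 2.13), where the inputs were level (18 against 19). In mESCs the same part held 11 and 6 tags, too few to separate. Exon 9 alone held 11 H3K4me3 tags in menin-null PILECs, 1 in menin-null mESCs and 0 in both wt libraries. If no other sequence stands in place of the missing stretch, this part of the gene lies closer to the promoter, by at most 3050 bp. Tags placed on mm9 do not show inserted sequence, and the part of distance in the difference was not tested.

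At the next protein-coding genes the intervals of both stages included 0. Map4k2, which begins 244 bp after Men1, had a menin-null over wt log2 ratio of 0.48 (-0.03 to 1.01) in mESCs and 0.15 (-0.13 to 0.43) in PILECs, and Cdc42bpg, which ends 9327 bp before it, 0.22 (-0.18 to 0.63) and -0.11 (-0.34 to 0.12). The enriched region that reaches into the last exon of Men1 from the start of Map4k2 held 204 tags in each PILEC library. Over the 10 kb after the end of Men1, menin-null over wt was 0.60 in mESCs (0.12 to 1.10, 116 against 53 tags). In PILECs it was 0.32 (0.05 to 0.58, 258 against 220 tags). The input ratios there were -0.17 (-0.84 to 0.49) and 0.28 (-0.18 to 0.74). Over the 10 kb before the start, the H3K4me3 intervals of both stages included 0. Over the 4 libraries, the genes with promoter levels most like Men1 were Gmps, Fdxr and Stk10, whose largest log2 differences from it in any library were 0.05, 0.08 and 0.08.

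**Figure D1:**
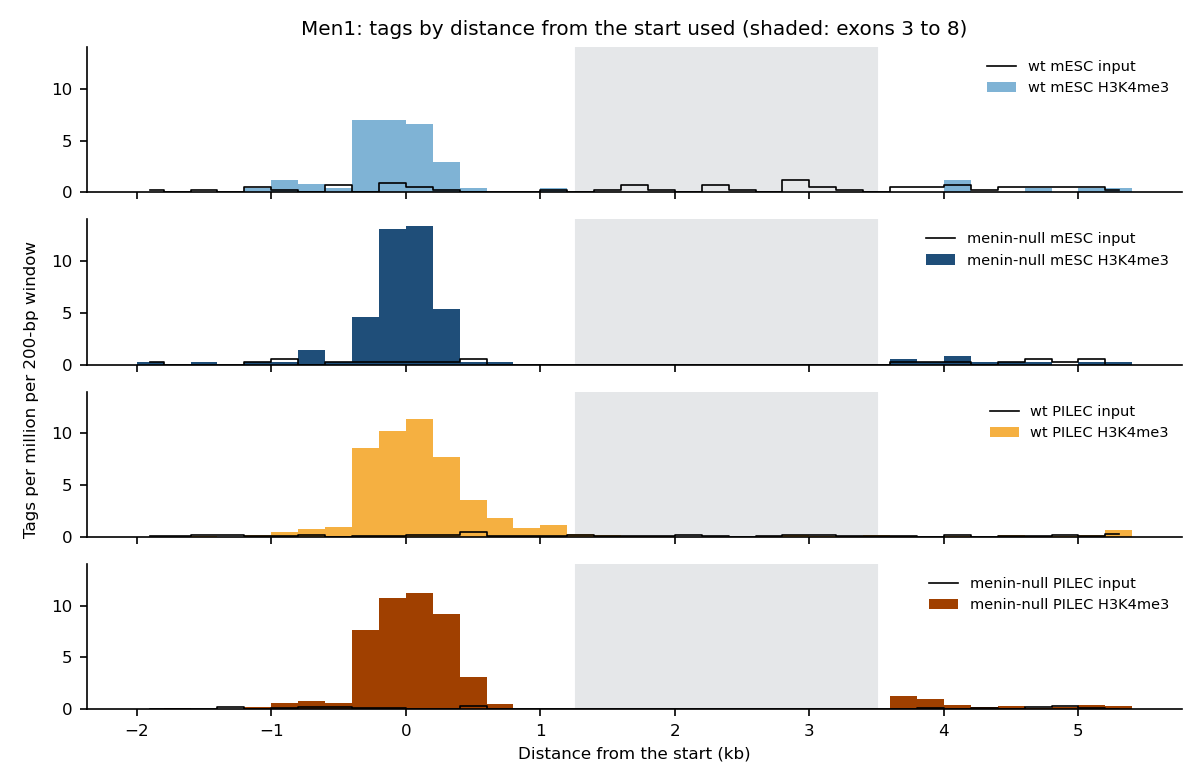
H3K4me3 (filled) and input (line) along Men1 in 200-bp windows, in RPM against distance from the start used in kb, with 1 panel per condition and exons 3 to 8 shaded. All 4 conditions have a peak at the start, no menin-null tags fall in the shaded exons, and menin-null PILECs have a small rise just after exon 8.

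All 10 promoters were strongly marked in every H3K4me3 library. Their levels ran from 22.0 RPM (Psip1 in menin-null PILECs) to 90.1 RPM (Kdm5b in menin-null mESCs), 9.98 to 65.1 times their inputs, which held 0.552 to 4.24 RPM. The lowest member still exceeded 64.1% of all genes in its library. In wt mESCs the order from high to low was Wdr5, Kdm5b, Setd1a, Psip1, Rbbp5, Ash2l, Dpy30, Setd1b, Cxxc1 and Men1, and the 95% intervals of neighbours in this order overlap throughout. In wt PILECs the range was narrower, from 32.4 RPM at Psip1 to 58.5 at Ash2l, and Men1 stood above Cxxc1, Setd1b, Dpy30 and Psip1.

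**Figure D2:**
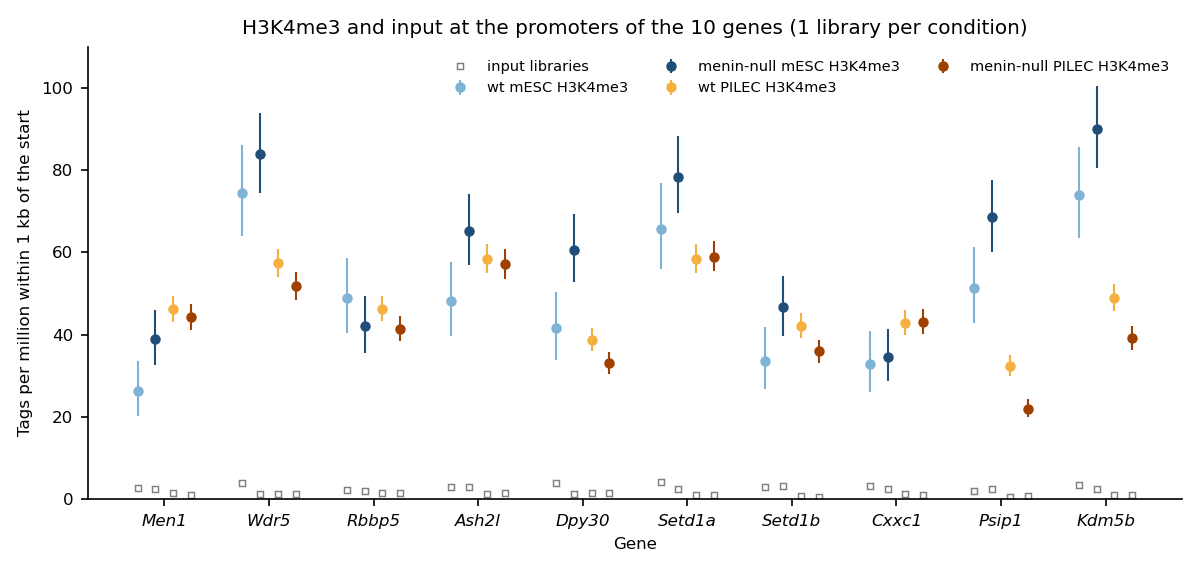
RPM within 1 kb of the start of the 10 genes, with filled points for the 4 H3K4me3 libraries (bars are exact 95% Poisson intervals) and open squares for the 4 inputs. Every H3K4me3 point lies above every input, and Psip1 and Kdm5b have the widest gaps between mESC and PILEC libraries.

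In mESCs the core subunits were led by Wdr5, the WD40 protein that contacts the catalytic subunit and the H3 tail. Wdr5 (chromosome 2, start 27370677, plus strand) held 74.4 (wt) and 83.9 RPM (menin-null) in mESCs, and 57.4 and 51.7 RPM in PILECs. Both mESC libraries were above both PILEC libraries, and the genotypes lay close within each stage. The menin-null over wt log2 ratio stood at 0.17 in mESCs (-0.10 to 0.45) and at -0.15 in PILECs (-0.28 to -0.02).

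DPY30 is a small subunit that binds ASH2L. Dpy30 (chromosome 17, start 74715734, minus strand) held 41.5 and 60.6 RPM in wt and menin-null mESCs, and 38.8 and 33.1 RPM in their PILECs. The menin-null library was the higher one in mESCs and the lower one in PILECs, with log2 ratios of 0.54 (0.20 to 0.90) and -0.23 (-0.39 to -0.07).

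Ash2l, the SPRY domain subunit that stimulates the methyltransferase, held 48.1, 65.1, 58.5 and 57.1 RPM in the same order (chromosome 8, start 26951241, minus strand). Its menin-null over wt ratio stood at 0.44 in mESCs (0.11 to 0.77) and at -0.03 in PILECs (-0.16 to 0.09). Chromosome 8 as a whole had more input in menin-null than wt mESCs, by 0.19 on the log2 scale and by 0.20 over the autosome median, and the input over 50 kb at Ash2l was 0.21 higher (-0.02 to 0.45), so the part of DNA content in its mESC difference was not tested. A second Ash2l start, 6925 bp upstream, was marked mainly in mESCs, with 11.5, 19.6, 1.60 and 2.54 RPM, and its mESC region held 77 menin-null and 29 wt tags (0.88, 0.24 to 1.55).

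Rbbp5, which joins the core to the SET domain, was the 1 member with less H3K4me3 in menin-null than wt mESCs. Rbbp5 (chromosome 1, start 134373944, plus strand) held 48.9, 42.1, 46.3 and 41.4 RPM, and its log2 ratios were -0.22 (-0.58 to 0.14) in mESCs and -0.16 (-0.31 to -0.02) in PILECs. The start of the noncoding RNA gene 6030442K20Rik lies 322 bp upstream on the other strand, and the mark of both starts is counted in this window. Input over 50 kb was lower by a like amount in menin-null mESCs, at -0.22 (-0.46 to 0.02), and that of chromosome 1 as a whole stood at -0.12 (-0.13 to -0.11). Divided by the input ratio within 50 kb, the Rbbp5 ratio in mESCs was 0.0056. The part of DNA content in it was not tested.

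The catalytic subunits Setd1a and Setd1b were unequal in level. Setd1a (chromosome 7, start 134920903, plus strand) held 65.8, 78.5, 58.4 and 59.0 RPM, and its menin-null over wt ratio stood at 0.25 in mESCs (-0.03 to 0.54) and at 0.01 in PILECs (-0.11 to 0.14). Setd1b (chromosome 5, start 123592966, plus strand) held 33.7, 46.6, 42.1 and 35.9 RPM, with ratios of 0.47 (0.08 to 0.87) and -0.23 (-0.38 to -0.08). For Setd1b the menin-null library was the higher in mESCs and the lower in PILECs. Cxxc1, the CpG-binding subunit of the SETD1 complexes, was nearly level between genotypes within 1 kb (chromosome 18, start 74375785, plus strand). It held 32.9, 34.7, 42.9 and 43.1 RPM, and its ratios were 0.08 (-0.34 to 0.50) and 0.01 (-0.14 to 0.15). In mESCs its centre differed, with 34 menin-null and 10 wt tags within 200 bp (1.23), and the ratio within 0.5 kb was 0.45 (-0.03 to 0.95).

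Psip1, which encodes the LEDGF tether, had the largest menin-null change of the 10 in PILECs within 1 kb, though not with the central 200 bp left out. Psip1 (chromosome 4, start 83132082, minus strand) held 51.4 (wt) and 68.5 RPM (menin-null) in mESCs, and 32.4 and 22.0 RPM in PILECs. Both PILEC libraries were below both mESC libraries, and menin-null PILECs were the lowest. Menin-null over wt stood at 0.42 in mESCs (0.10 to 0.74) and at -0.56 in PILECs (-0.75 to -0.37), 389 against 608 tags, and 8.10% of all genes tested in PILECs had a lower ratio. Kdm5b, the demethylase, followed the same order (chromosome 1, start 136456784, plus strand) with 74.0, 90.1, 49.0 and 39.1 RPM. Its ratios were 0.28 (0.02 to 0.56) in mESCs and -0.32 (-0.47 to -0.18) in PILECs.

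Over the 10 promoters, menin-null mESCs had more H3K4me3 at 9, and menin-null PILECs had less at 8 (7 with the missing stretch of Men1 left out), and none reached the call in either stage. Of all genes tested, 1.5% were called lower and 9.63% higher in menin-null mESCs, and 4.2% lower and 1.68% higher in menin-null PILECs, so 0 of 10 is near the background. The median log2 ratio of the 10 was 0.35 in mESCs, where that of all 15179 genes tested was 0.23, and -0.16 in PILECs, where that of all 20388 was -0.07. Relative to the median of all genes, 7 members were higher and 3 lower in mESCs, and 4 higher and 6 lower in PILECs. Among the 6675 genes with 201 to 497 tags in the mESC libraries, the range of the members, the median was 0.29. This lies closer to the 0.35 of the members than the median of all genes does. The interval excluded 0 at 6 members in mESCs, all higher, where it lay above 0 for 25.8% of all genes tested and below for 1.84%. In PILECs it excluded 0 at 6, all lower, where it lay below 0 for 23.5% of all genes and above for 5.57%. Among the 7092 genes with 997 to 2140 tags in the PILEC libraries, the range of the members, the 5th percentile of the ratio was -0.38, and Psip1 lay below it. Psip1 passed the call in PILECs within 2 kb (-0.60), with input subtracted (-0.59) or divided by the input ratio within 50 kb (-0.61).

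**Figure D3:**
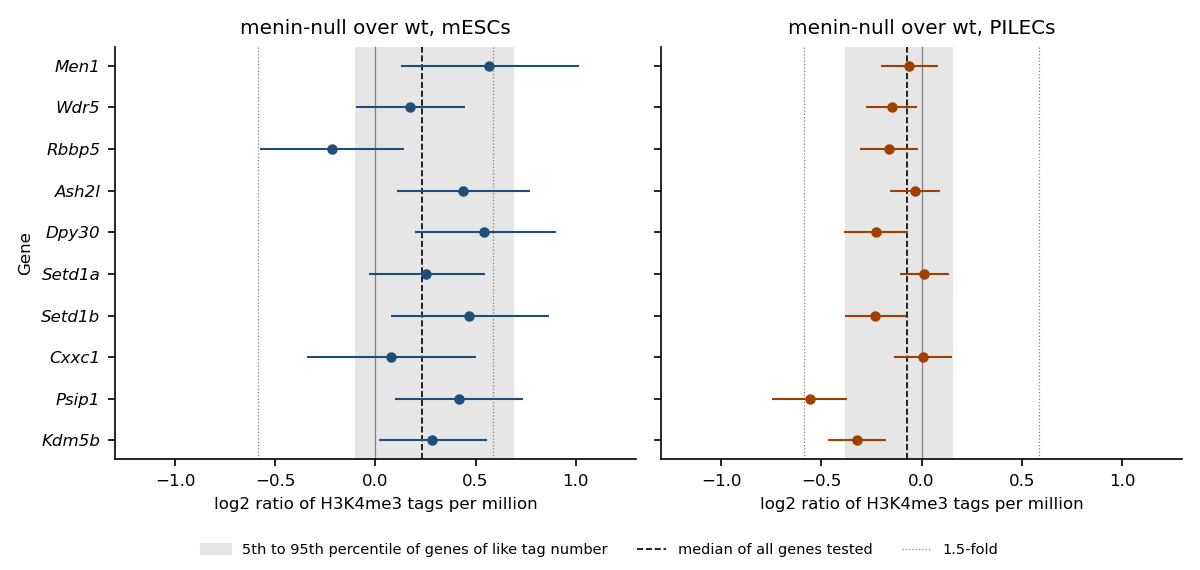
Menin-null over wt log2 ratio of promoter H3K4me3 (horizontal axis) for the 10 genes in mESCs (left) and PILECs (right), with exact 95% intervals for counting error as bars. The grey band spans the 5th to 95th percentile of genes of like tag number, the dashed line is the median of all genes, and in PILECs Psip1 stands left of the band at -0.56.

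The difference at Psip1 in PILECs was concentrated at the start itself. Within 200 bp of the start, Psip1 held 161 tags (8.58 RPM) in wt PILECs and 34 (1.92 RPM) in menin-null PILECs, a difference of -2.16 on the log2 scale (-2.74 to -1.62), and 0.641% of 14504 genes had a lower one. From 200 bp to 1 kb it held 447 and 355 tags, a ratio of -0.25 (-0.45 to -0.04). At that distance Setd1b (-0.32), Kdm5b (-0.29) and Dpy30 (-0.26) were lower than Psip1, and their intervals overlap. The share of its 1-kb tags that lay within 200 bp was 52.0% (wt) and 51.0% (menin-null) in mESCs, and 26.5% and 8.74% in PILECs, so the centre of the peak was strong in mESCs and weak in menin-null PILECs. The medians of all genes were 31.5%, 33.2%, 26.9% and 27.2%.

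Wdr5 showed the same form more weakly, with 212 wt and 113 menin-null tags within 200 bp in PILECs (-0.82, -1.16 to -0.49) and a level ratio outside (-0.02, -0.16 to 0.12). These 2 of the 10 members were called lower within 200 bp and none higher, where 12.7% and 1.09% of all genes were. Kdm5b stood at -0.42 (-0.71 to -0.13), and Men1 at 0.01 (-0.19 to 0.21). The distance of 200 bp was chosen after the values were seen.

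The promoter centre of Psip1 and the first intron of Wdr5 are dense in G, C and CpG, and these bases are shown because both lie in windows where menin-null PILECs had far fewer tags than wt (mm9, sense strand of the gene, CpG in capitals). The Psip1 stretch is the 96 bases before the start used, in intron 1 of its longer transcript models, with 15 CpG and 82.3% GC. The Wdr5 stretch is the 76 bases of intron 1 that end 200 bp after the start, with 12 CpG and 77.6% GC. The Psip1 stretch itself held 41 wt and 10 menin-null PILEC tags (-1.95, -3.11 to -0.93), and the Wdr5 stretch 41 and 7 (-2.46, -3.87 to -1.29).
Psip1, chr4:83132083-83132178, minus strand: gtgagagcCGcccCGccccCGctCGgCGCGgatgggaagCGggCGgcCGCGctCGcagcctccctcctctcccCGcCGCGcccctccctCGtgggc
Wdr5, chr2:27370801-27370876, plus strand: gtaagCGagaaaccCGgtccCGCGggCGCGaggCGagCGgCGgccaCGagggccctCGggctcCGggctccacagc
Within the 300 bases from 250 before to 50 after the start, Psip1 had 80% GC and 45 CpG, above 98.4% and 96.8% of 26206 promoters.

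Window by window, the PILEC difference was larger in most windows of at least 80% GC than in the rest, with exceptions on both sides. The 2 kb around each start was divided into 200-bp windows, a division made after the values were seen, and 89 of the 100 windows of the members held at least 20 tags in the 2 PILEC libraries. At Psip1 the window before the start (81% GC) held 72 wt and 17 menin-null tags (-2.00, -2.85 to -1.22), and the one after it (81.5% GC) 89 and 17 (-2.30, -3.14 to -1.54). At Wdr5 the window after the start (78% GC) held 81 and 18 (-2.08, -2.91 to -1.33). The intervals of these 3 windows overlap, although the whole-promoter ratios of the 2 genes were -0.56 and -0.15.

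Setd1b, level at its start, had the same gap upstream of it. Its window from 600 to 400 bp upstream (78% GC) held 63 wt and 20 menin-null tags (-1.57), and that from 400 to 200 bp (83% GC) 55 and 17 (-1.61). Kdm5b had 151 and 74 tags from 400 to 600 bp downstream (80.5% GC, -0.94). Among the 5 windows of at least 80% GC the exception was Setd1a, whose window after the start has 84% GC, the richest of all, and held 43 and 28 tags (-0.53, -1.27 to 0.19). Between 75 and 80% GC, 3 windows were not called, that of Psip1 from 400 to 200 bp upstream (65 wt and 62 menin-null tags, 0.02), that of Ash2l from 200 to 400 bp downstream (-0.18) and that of Kdm5b from 600 to 800 bp downstream (-0.32, -0.65 to 0.01).

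Summed over the 5 member windows of at least 80% GC, the menin-null PILEC library held 153 tags and the wt library 410, which gives -1.34 (-1.61 to -1.06), and 4 of the 5 were called lower. Over all genes the median of 2404 such windows was -1.43, and 80.8% were called lower. In the 5 member windows of 75 to 80% GC the sums were 308 and 476 (-0.54, -0.75 to -0.33), where the median of all genes was -0.45, and between 60 and 75% GC all medians lay between -0.01 and 0.03. Of the 79 member windows below 75% GC with enough tags, 5 were called lower and 0 higher: Setd1b from 800 to 600 bp upstream (72% GC, 101 wt and 52 menin-null tags, -0.87), Dpy30 in the 200 bp upstream (69.5%, -0.69), Cxxc1 in the 200 bp upstream (59%, -1.12), Psip1 from 800 to 600 bp upstream (52.5%, -0.65) and Men1 from 600 to 800 bp downstream (50.5%, 34 and 9 tags, -1.83). All 5 have 50 to 75% GC. In the classes of that range 5.01 to 9.33% of all genes' windows were called lower and 1.57 to 2.19% higher, so 5 is near the background. The Men1 window lies in the stretch without menin-null 5′ ends, and its 9 menin-null tags have their 5′ ends before it, since tags are counted at the middle of the fragment. Windows poor in GC were also lower in menin-null PILECs, if less so. Below 40% GC the median of all genes was -0.50 with 21.7% called lower, and the member windows summed to 165 menin-null and 246 wt tags (-0.49, -0.78 to -0.20). From 40 to 50% GC the median of all genes was -0.30 with 13.4% called lower, and the member sums were 776 and 1034 (-0.33, -0.46 to -0.19), of which 0 and 16 come from the Men1 window at 800 to 1000 bp, in the missing stretch. The members' GC-rich windows thus stood near those of all other genes of the same composition. The input did not share this difference, at 0.07 for menin-null over wt PILECs at 80% GC and above.

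In mESCs the same windows differed the other way. The 5 member windows of at least 80% GC held 304 menin-null and 153 wt tags (0.46, 0.17 to 0.75), and the 2 Psip1 windows at the start had ratios of 0.43 and 0.30, both with intervals that include 0. Of the 10 member windows of at least 75% GC, 10 had ratios above 0 in mESCs and 9 below 0 in PILECs. The windows of all genes had mESC medians of 0.37 from 75 to 80% GC and 0.39 at 80% and above. The input there was lower in menin-null mESCs, with summed ratios of -0.34 and -0.41. From 65 to 70% and from 70 to 75% GC the medians were alike, at 0.38 and 0.37, so the mESC difference was not particular to the richest windows. The member windows of these 2 classes summed to 0.46 (0.18 to 0.75) and 0.22 (-0.01 to 0.46). The low centre at Psip1 was thus seen in menin-null PILECs and not in the mESCs they were made from. What the base composition has to do with the PILEC difference was not tested.

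**Figure D4:**
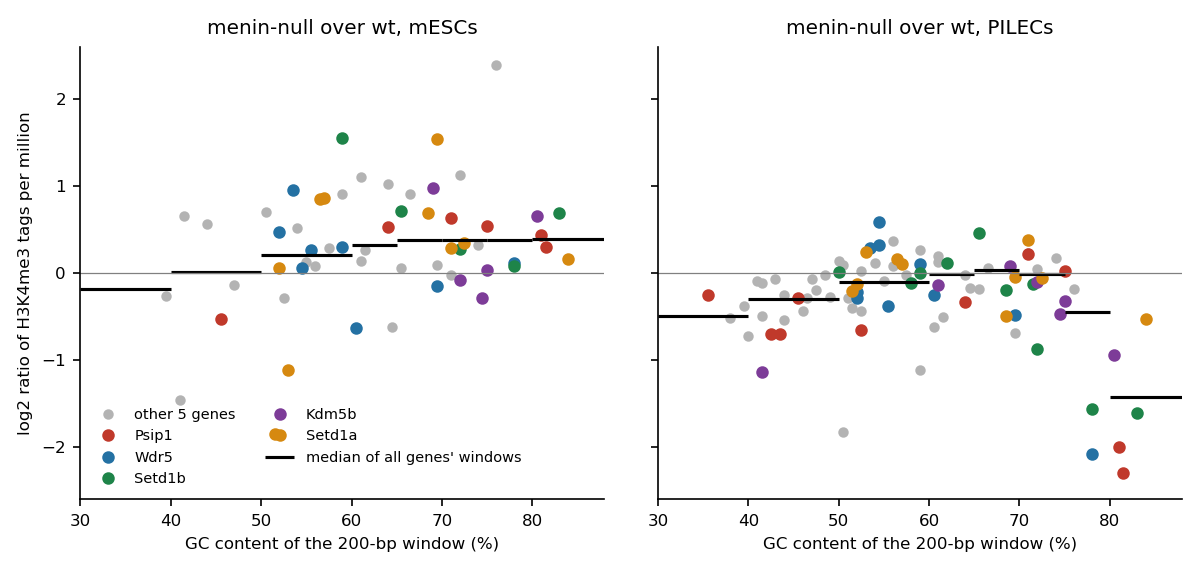
Menin-null over wt log2 ratio of H3K4me3 in 200-bp windows within 1 kb of the 10 starts (vertical axis) against the GC content of the window in percent, in mESCs (left, 58 windows with at least 20 tags) and PILECs (right, 89 windows). Black lines are medians of the windows of all genes, and the 5 member windows of at least 80% GC lie at -0.53 or below in PILECs and at 0.16 or above in mESCs.

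With the windows of at least 75% GC left out, the promoters of the 2 PILEC libraries were closer. Psip1 kept 3 fewer windows and had 293 menin-null and 382 wt tags, a log2 ratio of -0.30 (-0.52 to -0.07) in place of -0.56. Kdm5b moved from -0.32 to -0.19 (-0.37 to -0.02), Setd1b from -0.23 to -0.08 (-0.25 to 0.08) and Wdr5 from -0.15 to -0.06 (-0.20 to 0.07). Dpy30, which has no such window, stayed at -0.23, and the median of the members was -0.07 against -0.05 for all genes.

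Between the stages, the wt libraries differed most at Men1, Psip1 and Kdm5b. In wt cells, PILEC over mESC was 0.81 (0.44 to 1.20) at Men1, which was called higher, and -0.67 (-0.95 to -0.38) at Psip1 and -0.60 (-0.83 to -0.36) at Kdm5b, which were called lower. Of all 16587 genes tested, 20.3% were called lower and 16% higher, so 2 and 1 of 10 are near the background. Divided by the input ratio within 50 kb, 0 were called lower and 5 higher, where 13.6% and 32.3% of all genes were. The median of the members was then 0.58 and that of all genes 0.31, against -0.09 and -0.01 undivided, so the direction of the median changed. Of the called members, Kdm5b turned to 0.15, while Men1 stood at 1.90 and Psip1 kept its sign. In menin-null cells 4 members were called lower, Psip1 (-1.64, -1.87 to -1.40), Kdm5b (-1.20, -1.40 to -1.01), Dpy30 (-0.87, -1.10 to -0.64) and Wdr5 (-0.70, -0.89 to -0.50), and none higher, where 34.4% and 10.2% of 16838 genes were. Divided by the input ratio, 2 were called lower and 3 higher, where 23.2% and 19.4% of all genes were. The median of the members turned from -0.39 to 0.48, that of all genes from -0.32 to 0.0055, and Wdr5 stood at 0.0048. By either other scaling, 2 were called lower and 1 higher, where 22.2 to 23.4% and 18.58 to 19.98% of all genes were. Men1 itself was at 0.18 (-0.08 to 0.46) in menin-null cells.

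These stage ratios also moved with base composition. In member windows of at least 80% GC, PILEC over mESC was -1.53 in wt and -3.32 in menin-null cells, beside medians of -1.31 and -3.14 over all genes. The input had a large deficit too, with summed ratios of -3.69 in wt and -3.21 in menin-null cells over the windows of that class. With windows of at least 75% GC left out, wt Psip1 stood at 0.27 (-0.20 to 0.77) and was no longer lower in PILECs, and Setd1b was higher, at 0.83 (0.41 to 1.28). In menin-null cells Psip1 then stood at -0.42, Kdm5b at -0.80 and Wdr5 at -0.48. The PILEC and mESC libraries were sequenced to different depths and differ in the GC content of their inputs, and the part of this in the stage ratios was not tested.

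The peaks of some members were lopsided. Of the tags within 2 kb of the start of Kdm5b, 97.7% (wt mESCs), 97.9% (menin-null mESCs), 94.8% (wt PILECs) and 95.4% (menin-null PILECs) lay downstream, where the medians of all genes were 68.1%, 71.0%, 61.5% and 62.5%. Cxxc1 was also downstream, at 89.2%, 91.7%, 73.8% and 81.0%. Setd1b had most of its tags upstream in mESCs, with 24.1% and 24.2% downstream, and was nearly even in PILECs, with 46.0% and 52.7%. Psip1 shifted likewise from 35.7% and 33.7% in mESCs to 57.2% and 57.7% in PILECs. At Setd1b the windows from 1000 to 200 bp upstream have 71.5 to 83% GC, and those within 1 kb downstream 50 to 68.5%. Windows rich in GC were lower in PILECs than in mESCs over all genes, and the part of this in both shifts was not tested.

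Setd1b lay in one of the longest enriched regions of the genome. The region that holds its start was 9200 bp long in mESCs and 10000 bp in PILECs, longer than 99.99% of 9339 and 99.8% of 11769 regions at starts, whose medians were 1600 and 2000 bp. It reached 7765 bp upstream and also covers the annotated starts of the divergent noncoding gene AI480526. Over the region, menin-null and wt mESCs held 561 and 274 tags (0.50, 0.29 to 0.72), and menin-null and wt PILECs 2160 and 2532 (-0.14, -0.23 to -0.06).

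A separate, weak region lay inside the Setd1b gene, 7035 to 8034 bp downstream of the start (chromosome 5, 123600001 to 123601000), within the intron from 123598765 to 123601843. It held 3.70 RPM (9 tags, wt) and 13.4 RPM (47 tags, menin-null) in mESCs, and 3.36 RPM (63 tags, wt) and 3.68 RPM (65 tags, menin-null) in PILECs, with inputs of 0.368 to 1.65 RPM. Menin-null mESCs were the high library, and the other 3 were alike in RPM but not beside their inputs. The interval of wt mESCs (1.69 to 7.02 RPM) overlaps that of their input (0.66 to 3.39 RPM, 7 tags). The PILEC inputs were lower, at 0.368 (wt) and 0.662 RPM (menin-null). In mESCs the log2 ratio was 1.85 (0.81 to 3.07), and in the PILEC version of the region, 1200 bp long, it was 0.11 (-0.39 to 0.60). The mESC region was found on the tags of both libraries together and passed only through the menin-null library, where it is high, so its ratio is a description. The same way of finding regions holds for the counts that follow. Of 430 enriched regions inside genes in mESCs, 12.3% were called higher and 1.4% lower, and of 429 in PILECs, 3.96% and 19.6%.

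The region has few CpG, 18 per kb, where the median of the 430 was 55 and 12.8% had fewer. The 300 bases around its window with most menin-null mESC tags are shown because the menin-null mESC tags inside the gene gather there (mm9, plus strand, CpG in capitals, 59% GC).
Setd1b intron, chr5:123600152-123600451: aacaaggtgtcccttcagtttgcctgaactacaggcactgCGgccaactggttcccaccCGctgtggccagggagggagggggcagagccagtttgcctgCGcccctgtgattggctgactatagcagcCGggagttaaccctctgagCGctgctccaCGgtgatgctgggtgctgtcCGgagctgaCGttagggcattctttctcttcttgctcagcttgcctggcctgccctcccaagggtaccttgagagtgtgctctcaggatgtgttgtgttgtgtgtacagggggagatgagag
No annotated exon of the gene models used lies in these bases.

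**Figure D5:**
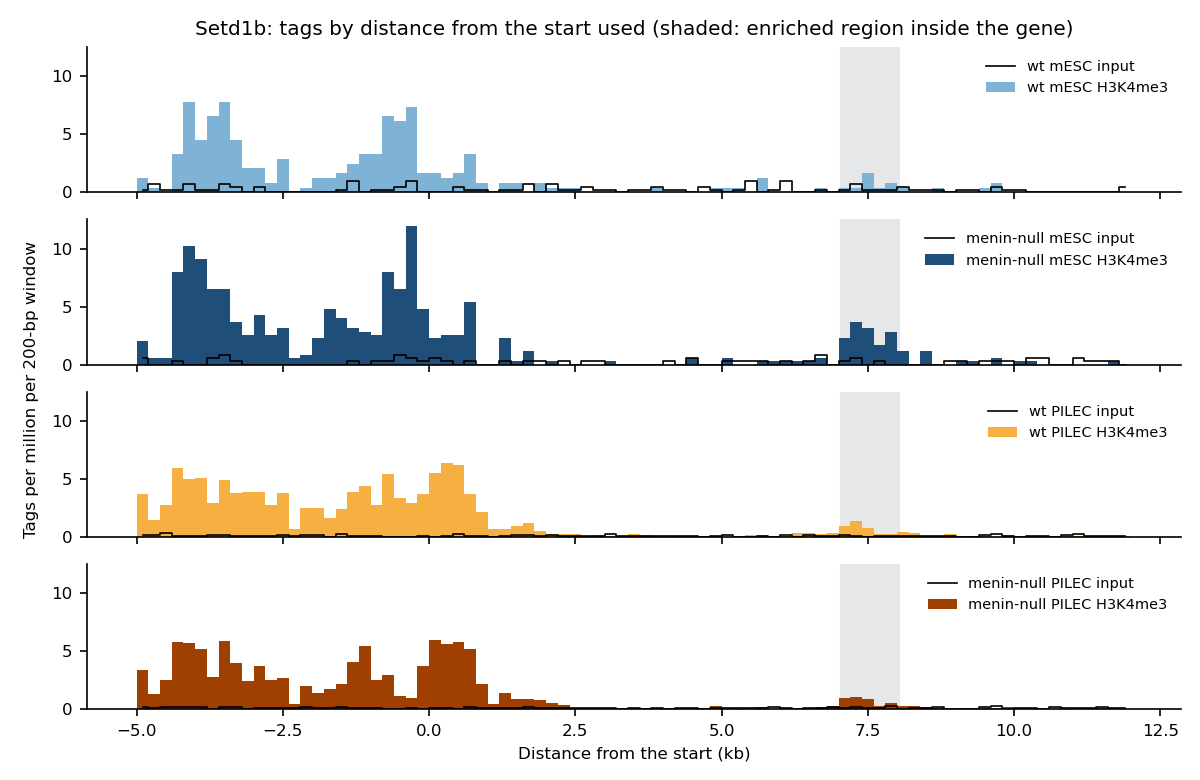
H3K4me3 (filled) and input (line) along Setd1b in 200-bp windows, in RPM against distance from the start used in kb, with 1 panel per condition and the region inside the gene shaded. The broad domain reaches upstream of the start in all 4 conditions, and the shaded region is highest in menin-null mESCs, with 13.4 RPM summed over the whole region.

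The promoters of the 10 genes differed in base composition and in the short motifs searched. Their sequences were not compared with each other. From 250 bp before to 50 bp after the start, GC ran from 44% (Rbbp5) to 80% (Psip1) with a median of 61.2%, beside 60% over the 20383 promoters with at least 20 PILEC tags, and the median number of CpG was 23.5 against 18. Motifs were searched on both strands. GGGCGG, the GC box, was found at 5 of 10 (Men1, Wdr5, Setd1b, Psip1 and Kdm5b), and at 54.5% of the 20383. ATGGCGG, part of the YY1 motif, was found at Men1 and Ash2l, and at 7.18%. CCGGAAG, the ETS motif, was found at Cxxc1, and at 13.1%. CGCATGCG (NRF1) and CACGTG (the E-box) were in none of the 10 windows, and in 2.61% and 8.45% of the 20383. A match is only a match of letters.

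Among 34 other genes of H3K4 methylation, 33 had enough tags to compare. Kmt2a, which encodes MLL1, held 59.6, 83.9, 57.3 and 61.4 RPM, with menin-null over wt ratios of 0.49 (0.20 to 0.79) in mESCs and 0.10 (-0.02 to 0.22) in PILECs. Kmt2b, which encodes MLL2, held 64.5, 85.3, 64.2 and 63.6 RPM, with ratios of 0.40 and -0.01. In mESCs 3 of the 33 were called higher and 0 lower, beside 9.63% and 1.5% of all genes, with a median of 0.27: Kmt2e, a relative of the MLL genes (62.5 to 102 RPM, 0.71, 0.43 to 0.99), Wdr82, a subunit of the SETD1 complexes (50.6 to 82.2 RPM, 0.70, 0.39 to 1.02), and Ing2, a reader of H3K4me3 (121 to 189 RPM, 0.64, 0.44 to 0.84). Ing2 lies on chromosome 8, where the menin-null mESC input was higher. In PILECs 2 were called lower and 0 higher, beside 4.2% and 1.68% of all genes, with a median of -0.08: Kdm2b, a CpG-binding demethylase (38.6 to 23.9 RPM, -0.69, -0.87 to -0.52), and Smyd2, a lysine methyltransferase (19.9 to 10.9 RPM, -0.87, -1.13 to -0.62). Across the stages, 3 were called lower and 3 higher in wt cells, beside 20.3% and 16% of all genes, and 11 and 2 in menin-null cells, beside 34.4% and 10.2%.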

How the data were processed

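H3K4me3 ChIP and input DNA were sequenced (36-bp reads, Illumina GAII) from 1 library per condition. The authors aligned the reads to mm9 and kept uniquely placed tags; the aligner is not given in the sources used here. The deposited files list 1 tag per line with its position, and tags were counted from them. A deposited score column that no source explains was looked at and not used. Between 1.04% and 1.81% of tags were listed with over 2 mismatches.

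Each tag was shifted 125 bp downstream of its 5′ end, the centre of a 250-bp fragment, and counted within 1 kb of 1 start per gene. Counts were divided by library totals (2432377 to 19016697 tags). Genes with at least 20 tags in a comparison were kept. Enriched regions were runs of 200-bp windows with at least 7 (mESCs) or 14 (PILECs) tags in the 2 libraries together, merged where 400 bp or less lay between them, if the run spanned 1000 bp or more and exceeded 2 times the input density. Intervals are 95% Clopper-Pearson; a count of 0 was read as up to 3. PCR copies are not independent, so intervals cover counting error only. The calls were tested on simulated counts with counting error alone, so PCR copies, base composition and spread between cultures were not covered. Alternatives covered tag position, copies, mismatches, scaling, window, start, input and fold. The text names the 10 members, Kmt2a, Kmt2b, other listed genes called in either genotype comparison, the genes beside Men1 or sharing a member's window, and the 3 most like Men1. The members and lists were chosen with earlier results of these data known. No promoter sequence of chromosome 18 is printed. Python 3.11.15, NumPy 2.4.6, SciPy 1.17.1, pandas 2.3.3 and Matplotlib 3.10.9 were used.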

Additional observations from a re-analysis of the deposited data

Results flagged for a closer look

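For 3 of the 10 members the interval of the difference between the stages, menin-null over wt in PILECs minus that in mESCs, excluded the median of all genes, which was -0.33 on the log2 scale. The same held for 17.4% of the 15102 genes tested in both stages, and for 5 of the 33 other genes of H3K4 methylation with enough tags. The difference was 0.055 at Rbbp5 (-0.32 to 0.43), -0.77 at Dpy30 (-1.15 to -0.40) and -0.97 at Psip1 (-1.33 to -0.61). Rbbp5 had the one ratio below 0 in mESCs and a like ratio in PILECs, while Dpy30 and Psip1 were above 0 in mESCs and below 0 in PILECs. Divided by the input ratio within 50 kb, the Rbbp5 ratio in mESCs was 0.0056. The part of DNA content in the Rbbp5 difference was not tested. The intervals cover counting error in 4 libraries only. At Psip1 the PILEC difference lay mainly in windows of over 80% GC, and Dpy30 has no window of at least 75% GC.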

How the results depend on the processing

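With 1 library per condition no replicate could be left out. No paired analysis was possible because each condition has 1 library and no replicate numbers. Of 400 single values of members recomputed under the first 10 other settings, 341 moved by less than their counting interval, 56 moved further and 3 were called ratios that turned sign, and of 84 under the 3 alternatives chosen after seeing the data (the central 200 bp, windows of at least 75% GC, or the missing stretch of Men1 left out) 66, 17 and 1. Uncalled ratios near 0 also changed side: 22 of 242 values for menin-null over wt and 25 of 242 between stages had another sign than the reported value, called ones included, and 5 and 21 of these moved by more than the counting interval. Psip1 in menin-null over wt PILECs ranged from -0.61 to -0.25 and kept its sign in all 12, and Men1 in menin-null over wt mESCs from -0.03 to 0.79.

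Called ratios that turned sign were all between stages, since no member was called between genotypes. Dpy30 in menin-null cells was 0.84 from the 5′ end of the gene, a start that holds 1 and 9 tags. Divided by the input ratio within 50 kb, Kdm5b in wt cells was 0.15 and Wdr5 in menin-null cells 0.0048. With the GC-rich windows left out, Psip1 in wt cells was 0.27.

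Members called higher in menin-null over wt mESCs were 1 by the 5′ end of the tag, by the 5′ end of the gene or divided by input, and 2 within 0.5 kb or with input subtracted. Under these settings 9.57 to 15.1% of all genes were called higher. Members called lower in menin-null over wt PILECs were 1 within 2 kb, with input subtracted or divided by input, where 3.29 to 8.03% of all genes were. For PILEC over mESC in wt cells, 1 was called lower by the 5′ end of the tag, by either other scaling, within 0.5 kb or with input subtracted, where 17.5 to 23.1% of all genes were. None was within 2 kb, divided by input, at 2-fold, or with the centre or the GC-rich windows left out, where 13.6 to 17.5% of all genes were. In the same comparison 2 members were called higher within 0.5 kb or with the GC-rich windows left out, 5 divided by input and 0 at 2-fold. The shares of all genes were 14.3%, 19.4%, 32.3% and 7.41% in this order. In menin-null cells, 2 were called lower by either other scaling (all genes' median ratio at 0, or promoter tags in place of all tags). Also 2 were called lower divided by input, at 2-fold or without GC-rich windows. Under these settings 21.8 to 26.7% of all genes were called lower. In the same cells 1 was called higher by either scaling, 2 without the centre and 3 divided by input. The shares of all genes called higher were 18.58 to 19.98%, 14.2% and 19.4% in this order. The median of the members between stages in menin-null cells was -0.074 with the median at 0, -0.035 by promoter tags, -0.70 from the 5′ end of the gene, 0.48 divided by input and -0.10 without GC-rich windows. In wt cells it was -0.38 from the 5′ end of the gene and 0.58 divided by input. The PILEC inputs have few GC-rich tags, and the part of this in the input-divided values was not tested. The mESC libraries held 64 to 317 tags per member.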
